A study of Mus musculus with 16 samples.

Results

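The genes described here encode the proteins of the mitochondrial ribosome. They were chosen by name: every row of the deposited count tables whose symbol is Mrpl or Mrps followed by a number and at most 1 further letter, and which had a count in at least 1 library. This gave 79 rows of 53090, or of the 26933 that had any count. The 79 rows carry 78 symbols, 49 rows named Mrpl for the large subunit and 30 named Mrps for the small subunit. Mrps23 stands in 2 rows with identical values in all 16 libraries, so its reads were split equally between 2 gene identifiers, and each of these rows holds only part of its level.

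Mitochondria carry their own ribosomes, which translate the few membrane proteins of the respiratory chain that the mitochondrial genome encodes. The ribosomal RNAs come from the mitochondrial genome, whereas all of the proteins are encoded in the nucleus, made in the cytosol and imported. Some of the proteins have bacterial homologs, and others were acquired during the evolution of mitochondria. T cells that leave the resting state enlarge their mitochondria and depend on mitochondrial translation to proliferate.

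The libraries hold RNA of splenic naïve CD4+ T cells (Tn, CD44low CD62Lhigh, isolated magnetically and not cultured) and from CD4+ T cells kept for 2 days (48 h) in Treg conditions, with anti-CD3, anti-CD28, TGF-beta and IL-2. The mice were C57BL/6 (WT) or Aim2-/- on the C57BL/6 background, matched for age and sex, with ages not given. Each of the 4 groups (WT Tn, Aim2-/- Tn, WT Treg and Aim2-/- Treg) had 4 libraries, numbered 1 to 4 in their titles, of 22516424 to 34533316 counts. The Aim2-/- mice lack AIM2 in all cells and not only in T cells, and Treg names the culture, so culture, stimulation, cytokines and time cannot be told apart.

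Levels are CPM, each count divided by its library's total and TMM factor, which set each gene against the other RNA of its library. Less RNA per cell and fewer cells of a type cannot be told apart in such values. The titles and methods do not say that each library came from a separate mouse or culture, so the p-values measure the spread between these libraries, which may be technical. Aim2, the targeted gene, checked the labels: it lay between 32.3 and 43.3 CPM in the 8 WT libraries and between 6.61 and 10.8 CPM in the 8 Aim2-/- libraries. T cell markers were high in all libraries (8 genes, summed level 2159 to 6299 CPM), and the summed level of 5 naïve markers was lower, and that of 7 markers of activated and Treg cells higher, in every Treg library than in any Tn library. Ctla4, one of the latter, was not called in either genotype. Summed markers of other cells were low: 8 B cell genes reached 2.39 CPM (Ms4a1 at 0 in all 4 groups), 8 myeloid genes 20.0 CPM, 2 CD8 genes 12.3 CPM, 4 NK genes 7.77 CPM and 8 erythroid genes 8.31 CPM. Aim2-/- Tn 3 stood apart from the other naïve libraries in the genes described here, and the genotype comparison is given with and without it.

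All 79 rows passed the filter on low counts in every comparison, and the lowest count of any of them in any library was 174. Among the naïve WT cells the mean level ran from 7.68 CPM for Mrpl1 to 116.8 CPM for Mrpl24, with a median of 24.9 CPM over the 78 symbols. Per kilobase of annotated exon the range was 1.79 to 51.8 CPM per kb, or 29.0-fold. The highest levels per kb were those of Mrpl24 (51.8), Mrps21 (34.96), Mrpl9 (33.3), Mrpl12 (28.4) and Mrpl18 (26.8), and the lowest those of Mrpl1 (1.79), Mrps10 (1.82), Mrpl17 (1.99), Mrpl47 (2.30) and Mrps22 (2.41). With the length of a coding transcript in place of all exons, only 2 of the 5 highest and 2 of the 5 lowest were the same genes, so the order at both ends depends on which length is used. The spread between the genes (SD of log2 CPM per kb over the 78 symbols) was 1.08 in WT Tn, 1.10 in Aim2-/- Tn, 1.02 in WT Treg and 1.04 in Aim2-/- Treg.

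Nearly all of these genes were higher after Treg culture. In WT cells 74 of the 79 rows were higher in Treg than in Tn, 1 was lower and 4 were not called by the edgeR quasi-likelihood test (Benjamini-Hochberg adjusted p under 0.05). Of all 13675 genes tested, 37.7% were called higher and 39.2% lower, so 93.7% of the ribosomal rows rose where the background for a rise was 37.7%. Their median log2 fold change was 0.92, a 1.89-fold rise, beside -0.05 for all genes tested. In 36 rows the rise was over 2-fold, a count for which the share of all genes is not given here. In Aim2-/- cells 71 rows rose, 1 fell and 7 were not called, with a median log2 fold change of 0.96, beside a background of 39.1% called higher and 40.2% called lower and a median of -0.04 over all 13713 genes tested. In both genotypes 71 rows rose, 1 fell and 4 were not called, and the other 3 rose in WT only, a difference between genotypes that the interaction test given further on did not call.

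The levels summed over the 79 rows show the same in each library. They were 2183, 2098, 2255 and 2166 CPM in WT Tn libraries 1 to 4, and 4096, 4198, 4077 and 4400 CPM in WT Treg. In Aim2-/- Tn they were 2224, 2240, 2794 and 2426 CPM, and in Aim2-/- Treg 4050, 4291, 4570 and 4819 CPM. Each Treg library lay above each Tn library, by a ratio of the group means of 1.93 in WT and 1.83 in Aim2-/-. Without TMM factors, their share of all counts was 0.22% in WT Tn and 0.421% in WT Treg at the mean.

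**Figure D1:**
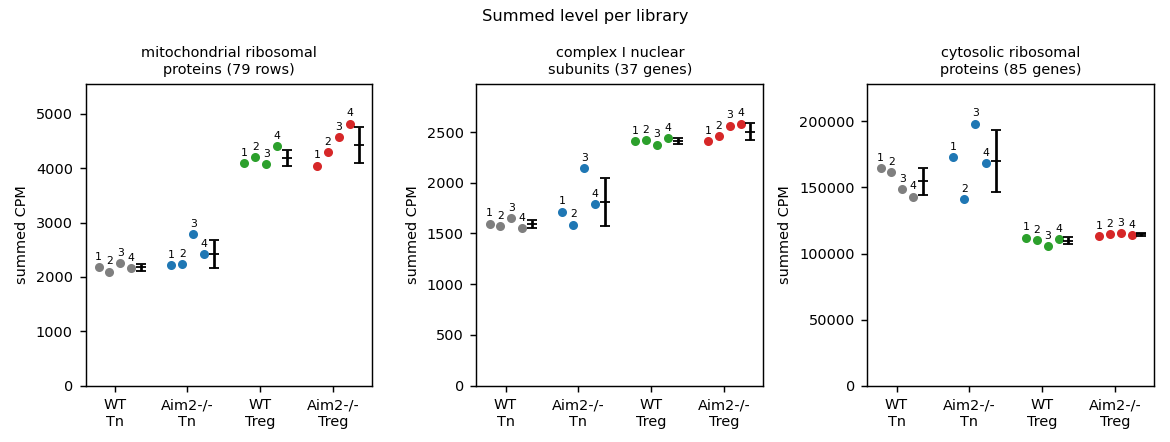
Summed level (CPM, linear axis from 0) in each of the 16 libraries, numbered by replicate, of the mitochondrial ribosomal protein rows, of the nuclear subunits of complex I and of the cytosolic ribosomal proteins, with the group mean and SD (n = 4) in black. The mitochondrial ribosomal proteins run from 2098 to 2794 CPM in Tn and from 4050 to 4819 CPM in Treg, whereas the cytosolic ribosomal proteins lie lower in Treg, and Aim2-/- Tn 3 is the highest Tn library in all panels.

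Mrpl17, a protein near the exit tunnel of the large subunit, rose most. It was at 14.1, 13.0, 18.9 and 14.6 CPM in WT Tn and at 65.5, 69.1, 67.0 and 71.9 CPM in WT Treg, with a log2 fold change of 2.15 ± 0.12 (SE, n = 4 libraries a group, edgeR adjusted p = 1.51e-07), or 4.43-fold. Mrps6, a small-subunit protein of bacterial origin, was at 18.1, 15.7, 18.4 and 18.5 CPM in WT Tn and at 76.9, 77.5, 83.7 and 75.3 CPM in WT Treg (log2 fold change 2.11 ± 0.08, edgeR adjusted p = 1.57e-08). In Aim2-/- cells the log2 fold changes of these genes were 2.16 and 2.01. Neither gene had a Treg library within the range of its Tn libraries, in either genotype. Mrps6 shares exon bases with Slc5a3 on the same strand and had counts that were not whole numbers in all 16 libraries, so some of its reads were divided between genes.

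The promoters of Mrpl17 and Mrps6, the largest rises, and of Mrpl24, the only fall, are shown as the 150 bases before the RefSeq start site on GRCm38.p6, 5′ to 3′ on the gene's strand, with motif matches in capitals. Both strands were searched for the motifs of regulators known to act on nuclear genes for mitochondrial proteins and of general promoter elements. NRF1, nuclear respiratory factor, was searched as GCATGCGC. ETS factors, which include the respiratory regulator GABPA, were searched as CCGGAAG. The E-box that binds MYC with its partner MAX was searched as CACGTG. YY1, a factor that binds near start sites, was searched as AAGATGGCG. The GC box that binds SP1 was searched as GGGCGG, and neighbouring matches may share letters. The TATA box, where the basal factors assemble at some promoters, was searched as TATAAA. In the Mrpl17 window an NRF1 match lies 11 bases before the start and GC boxes 126 and 87 bases before it. The Mrps6 window holds 4 GC box matches, and the Mrpl24 window holds no match.
Mrpl17, chr7:105811088-105811237, minus strand: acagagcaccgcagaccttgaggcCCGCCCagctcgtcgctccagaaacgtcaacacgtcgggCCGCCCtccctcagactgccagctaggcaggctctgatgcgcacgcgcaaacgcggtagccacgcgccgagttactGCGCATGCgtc
Mrps6, chr16:92058186-92058335, plus strand: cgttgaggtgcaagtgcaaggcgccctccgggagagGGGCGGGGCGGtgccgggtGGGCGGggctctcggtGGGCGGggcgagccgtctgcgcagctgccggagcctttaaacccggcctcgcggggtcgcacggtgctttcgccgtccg
Mrpl24, chr3:87919394-87919543, plus strand: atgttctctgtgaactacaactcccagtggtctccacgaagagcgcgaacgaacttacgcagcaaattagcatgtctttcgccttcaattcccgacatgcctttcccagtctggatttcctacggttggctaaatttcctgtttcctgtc

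Over windows of 300 bases (250 before to 50 after the start), 69 of the 78 symbols had a RefSeq promoter. The ETS motif was in 36.2% of these, beside 19.4% of the promoters of 9484 tested genes and 9.12% of 27025 promoters in all. The YY1 motif was in 11.6% (3.43% of tested genes, 1.49% of all) and the NRF1 motif in 11.6% (5.66% and 2.80%). The E-box was in 7.25% (10.5% and 7.24%), the GC box in 49.3% (64.5% and 35.9%) and the TATA box in 5.80% (6.55% and 14.2%). The 25 members with the ETS motif had a median log2 fold change in WT culture of 0.84 and those without it 1.02. For NRF1, found in 8 members, the medians with and without it were 0.74 and 0.98. For YY1, found in 8 members, they were 1.09 and 0.89, and for the E-box, found in 5, 1.11 and 0.92. For the GC box, found in 34 members, they were 0.82 and 1.03, and for the TATA box, found in 4, 0.79 and 0.98. A match is a description of the letters in the window and not a bound site.

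Of the 8 largest rises in WT, 7 were genes named Mrpl, for the large subunit, as are 49 of all 79 rows. Mrpl12, the stalk protein that contacts the translation factors, was at 39.9, 38.3, 49.2 and 46.3 CPM in WT Tn and 165.8, 177.5, 155.8 and 177.0 CPM in WT Treg, which made it the highest member in Treg by CPM (log2 fold change 1.93 ± 0.10 in WT and 1.84 ± 0.10 in Aim2-/-, edgeR adjusted p = 7.77e-08 and 1.48e-08). Mrpl16, next to the site where the incoming tRNA binds, rose by a log2 fold change of 1.82 ± 0.09, and Mrpl1, of the stalk near the exit of the spent tRNA, by 1.76 ± 0.13. Mrpl20, which in bacteria binds the ribosomal RNA early in assembly, rose by 1.88 ± 0.08, and Mrpl45, which holds the ribosome at the inner membrane, by 1.72 ± 0.09. Mrpl51, a protein without a bacterial homolog, rose by 1.99 ± 0.18. Mrpl12 and Mrpl51 had counts that were not whole numbers in 16 and 7 libraries. The Tn levels of Mrpl51 split by replicate number, at 15.4 and 14.1 CPM in WT Tn 1 and 2 against 23.4 and 24.6 CPM in WT Tn 3 and 4, and all 4 lay below the 73.5 to 86.7 CPM of WT Treg. On the log2 scale libraries 3 and 4 lay above 1 and 2 by 0.687 in WT Tn and 0.655 in Aim2-/- Tn. In WT Treg and Aim2-/- Treg they did so by 0.15 and 0.354. In the Aim2-/- comparison the 8 largest rises held 7 of these and Mrps22, a small-subunit protein particular to mitochondria (1.91 ± 0.12 in Aim2-/- and 1.62 ± 0.12 in WT).

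The small subunit rose by less at the median. Mrps12, of the decoding centre, was at 15.4, 14.8, 14.99 and 16.8 CPM in WT Tn and 26.5, 28.6, 27.3 and 31.0 CPM in WT Treg (log2 fold change 0.84 ± 0.09). The Mrps18 genes encode 3 related proteins of which a is placed in the large subunit and b and c in the small subunit by structure. They rose by 0.92 ± 0.08 (Mrps18a), 1.33 ± 0.06 (Mrps18b) and 0.72 ± 0.11 (Mrps18c) on the log2 scale in WT. Mrps36 is named as a ribosomal protein but belongs to the 2-oxoglutarate dehydrogenase complex of the citric acid cycle, and it rose by 0.98 ± 0.13. By structure, 47 of 51 large-subunit rows rose and 1 fell in WT (median 1.05), and 26 of 27 small-subunit rows rose (median 0.81). The summed level of the large subunit over that of the small subunit was 2.05 ± 0.01 (SD, n = 4) in WT Tn, 2.00 ± 0.02 in Aim2-/- Tn, 2.12 ± 0.01 in WT Treg and 2.12 ± 0.02 in Aim2-/- Treg, and the lowest Treg library (2.09) lay above the highest Tn library (2.07). Rows with a bacterial homolog had a median of 1.07 (45 of 47 rose, 1 fell), and the other 32 one of 0.84 (29 rose).

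**Figure D2:**
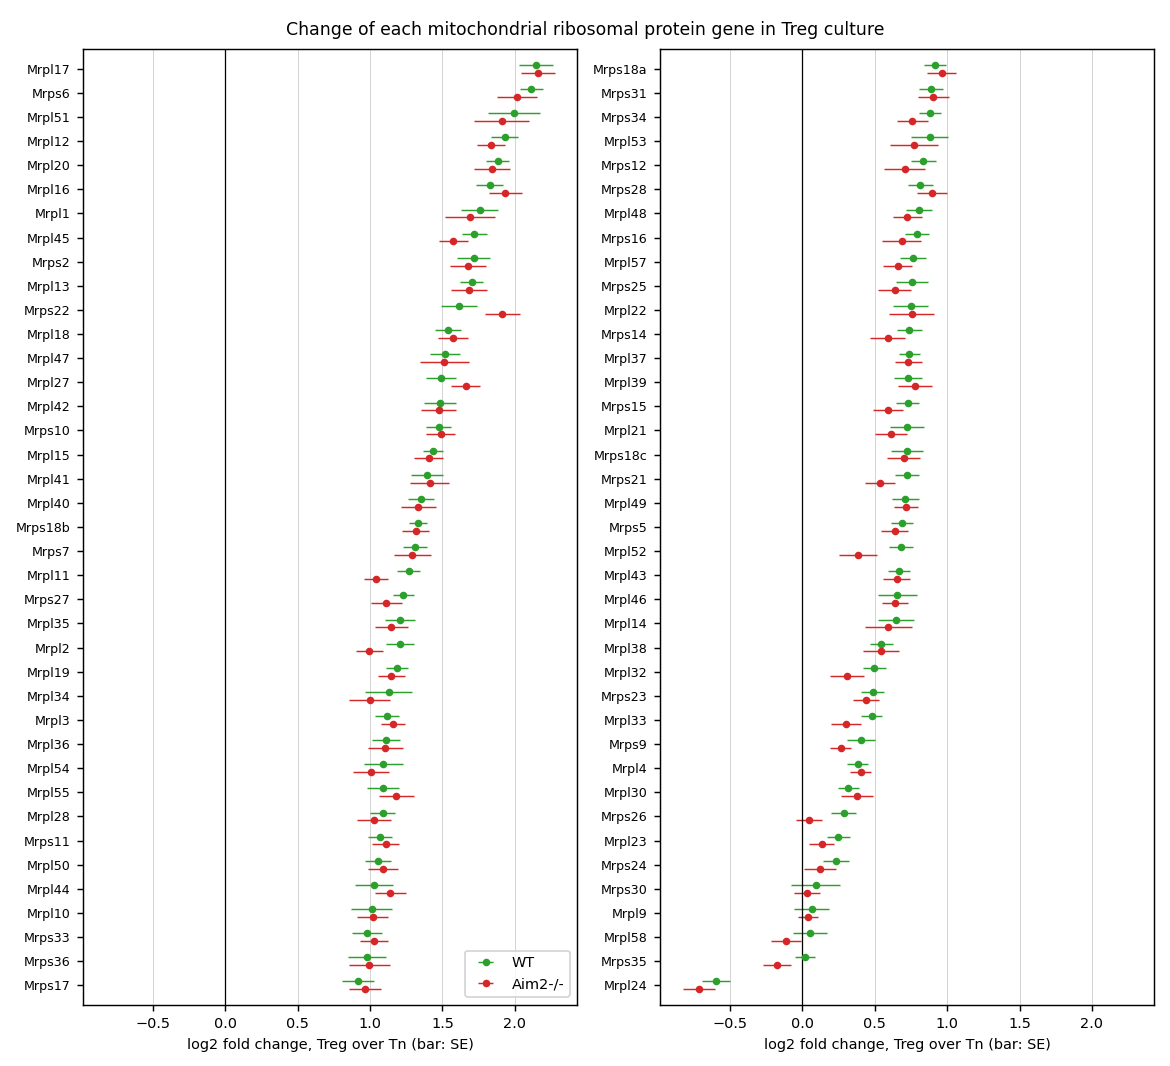
Log2 fold change of Treg over Tn for each of the 78 symbols, ordered by the value in WT and continued from the left to the right panel, in WT (green) and Aim2-/- (red) cells, with bars for the standard error of the edgeR fit (n = 4 libraries a group). Values run from 2.15 for Mrpl17 to -0.60 for Mrpl24 in WT, and the pairs of points lie close together, with the widest gaps at Mrpl52, Mrps22 and Mrps26.

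Mrpl24, a large-subunit protein whose bacterial homolog starts assembly and sits at the exit tunnel, fell in both genotypes. It was at 108.9, 99.95, 129.1 and 129.4 CPM in WT Tn and at 73.4, 75.2, 85.1 and 82.1 CPM in WT Treg, with no overlap (log2 fold change -0.60 ± 0.10, edgeR adjusted p = 0.00032). In Aim2-/- cells it went from 118.8, 128.5, 150.8 and 141.5 CPM to 71.1, 74.9, 88.7 and 96.1 CPM (-0.72 ± 0.11, edgeR adjusted p = 9.22e-05). Mrpl24 was the most abundant member in Tn by CPM and by CPM per kb. It shares 594 exon bases with Rrnad1 on the opposite strand, and its counts were not whole numbers in any of the 16 libraries. Rrnad1 fell as well, from a mean of 39.9 to 21.4 CPM in WT (log2 fold change -0.93 ± 0.11), and since the strand setting of the counting is not given, reads of these genes cannot be told apart where they overlap.

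The members that were not called in WT were Mrps35, Mrpl58, Mrpl9 and Mrps30. Mrps35, a small-subunit protein particular to mitochondria, was at 29.0, 29.7, 30.8 and 28.9 CPM in WT Tn and at 30.1, 31.4, 29.5 and 31.5 CPM in WT Treg (log2 fold change 0.02 ± 0.07, edgeR adjusted p = 0.82). Mrpl58, which releases peptides from stalled ribosomes, was at 35.02, 34, 46.2 and 44.7 CPM in Tn and 45.8, 44.1, 39.1 and 40.6 CPM in Treg (0.05 ± 0.12, edgeR adjusted p = 0.69). The groups of both genes overlapped. In Aim2-/- cells Mrps35 had a log2 fold change of -0.17 ± 0.10 and Mrpl58 of -0.11 ± 0.10, with edgeR adjusted p of 0.12 and 0.33, and with a correction for GC content and length both were called lower there (-0.45 and -0.23, edgeR adjusted p = 0.0055 and 0.047). Mrps35 was also called lower in Aim2-/- without Aim2-/- Tn 1 (-0.26, edgeR adjusted p = 0.043) or without Aim2-/- Tn 2 (-0.28, edgeR adjusted p = 0.023).

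Mrpl9, of the large subunit, and Mrps30, placed in the large subunit by structure, spread widely within WT Tn. Mrpl9 was at 106.8 and 99.8 CPM in WT Tn 1 and 2 and at 78.0 and 75.5 CPM in WT Tn 3 and 4, and between 90.0 and 100.9 CPM in WT Treg. Mrps30 was at 56.7 and 53.7 CPM in WT Tn 1 and 2 and at 33.0 and 36.6 CPM in WT Tn 3 and 4, and between 47.3 and 50.97 CPM in WT Treg. Their log2 fold changes of 0.06 ± 0.12 and 0.09 ± 0.17 in WT therefore rest on averages over libraries that differ among themselves. In Aim2-/- Tn the same genes lay between 89.97 and 100.5 CPM and between 45.8 and 55.1 CPM, with no split by replicate number. Both genes had counts that were not whole numbers, in 16 libraries for Mrpl9 and 12 for Mrps30.

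Mrps24, Mrpl23 and Mrps26 had the smallest called rises in WT, at 0.23 ± 0.09, 0.25 ± 0.08 and 0.28 ± 0.09 on the log2 scale (edgeR adjusted p = 0.033, 0.015 and 0.012), and none of the 3 was called in Aim2-/-, at 0.12 ± 0.11, 0.13 ± 0.09 and 0.05 ± 0.09 (edgeR adjusted p = 0.31, 0.18 and 0.65). Mrps24 and Mrps26 are small-subunit proteins, of which Mrps24 lies at the entry of the mRNA, and Mrpl23 lines the exit tunnel. The call of Mrps24 in WT was lost without WT Tn 1, WT Tn 2 or WT Tn 4 (log2 fold change 0.24, 0.17 and 0.20, edgeR adjusted p = 0.056, 0.14 and 0.10), and that of Mrps26 without WT Tn 1 or WT Tn 2 (0.24 and 0.21, edgeR adjusted p = 0.060 and 0.065) and with the GC and length correction (0.12, edgeR adjusted p = 0.28). With that correction Mrps24 was called in Aim2-/- (0.40, edgeR adjusted p = 0.0018). Mrpl23 counts were not whole numbers in any library, and a pseudogene of it, Mrpl23-ps1, also held counts.

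Members at a lower level in Tn tended to have a larger change. Over the 78 symbols the log2 CPM in Aim2-/- Tn and the log2 fold change in WT, which have no library in common, had a Pearson r of -0.53 and a Spearman rho of -0.49 (-0.35 and -0.29 for CPM per kb). The log2 fold changes in WT and in Aim2-/-, which also come from separate libraries, had an r of 0.99 and a rho of 0.98. Exon length and GC content had an r of -0.02 and -0.06 with the change in WT. The points are genes measured in the same libraries and are not independent replicates.

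**Figure D3:**
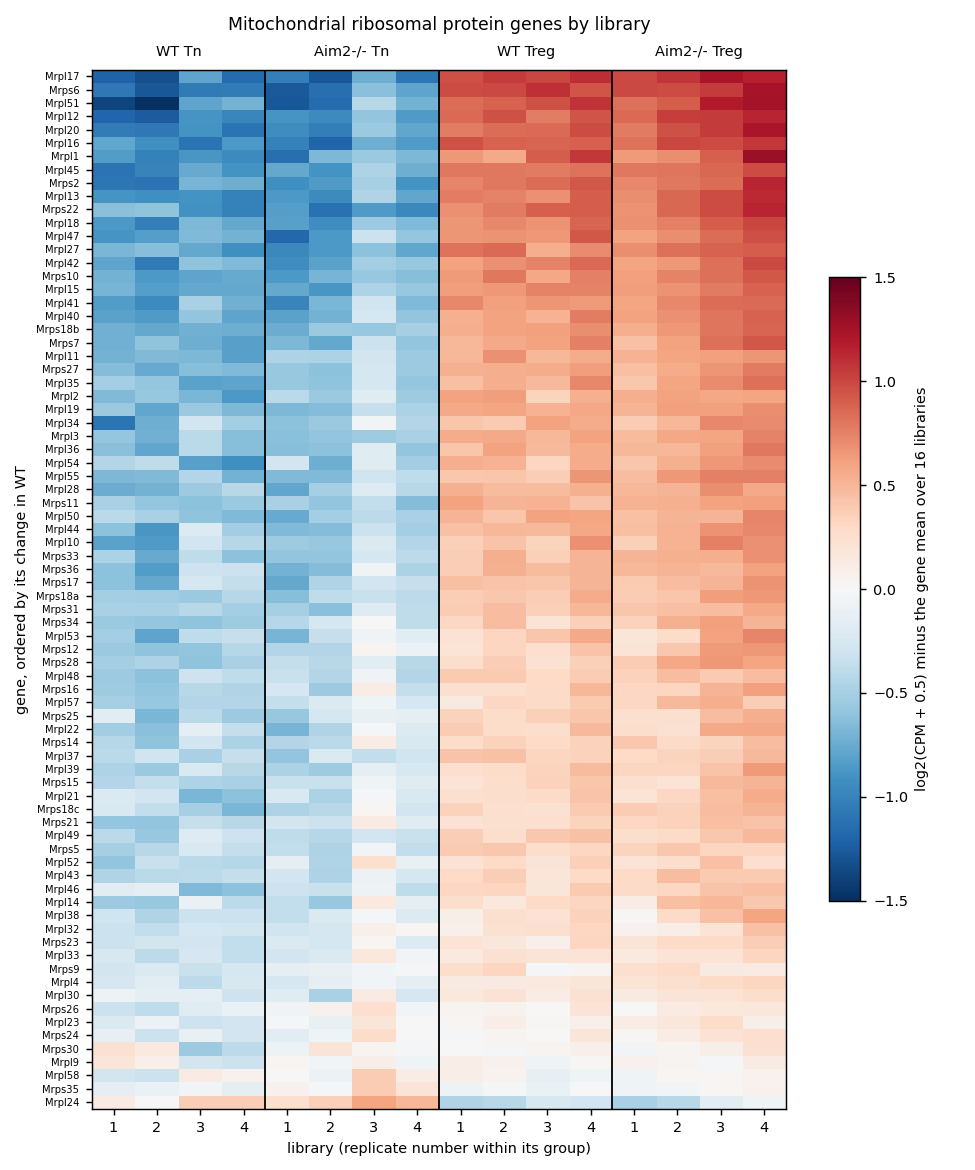
Level of each of the 78 symbols in each of the 16 libraries, as log2(CPM + 0.5) minus the mean of the gene over all libraries (red above, blue below, colours capped at 1.5), with genes ordered by their change in WT and libraries grouped by genotype and state. Tn libraries are mostly blue and Treg libraries mostly red except in the lowest genes, Mrpl24 has the opposite colours, and Aim2-/- Tn 3 is paler than the other Tn libraries over most genes.

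Other genes of mitochondrial translation were described from lists of known members. For their counts, the background was 37.7% of all genes called higher and 39.2% lower in WT, and 39.1% and 40.2% in Aim2-/-. The 5 subunits with other names (Dap3, Ptcd3, Aurkaip1, Chchd1 and Gadd45gip1) all rose in both genotypes, at a median log2 fold change of 0.85 in WT, with the largest rises for Gadd45gip1 (1.20), Chchd1 (1.03) and Ptcd3 (0.85). Of 12 translation factors tested, 9 rose and 1 fell in WT (median 0.81), led by Tsfm (1.96) and Gfm1 (1.79), elongation factors, and Pdf (1.87), which removes the formyl group from the first methionine. Of 27 rows for assembly and rRNA modification, 13 rose and 6 fell (median 0.35), and the largest changes were those of Ddx28 (1.47), Ybey (1.45) and Mettl17 (-1.42). Mpv17l2 stands in this list in duplicate rows with identical values. Of 20 rows for mitochondrial tRNA charging, 12 rose and 3 fell (median 0.55), with Lars2 (2.77), Ears2 (-1.43) and Gatc (1.26) changed most. Of 12 genes of mitochondrial transcription and genome maintenance, 7 rose and 2 fell (median 0.73), with Polg2 at -1.66, Slirp at 1.64 and Tefm at 1.46. In Aim2-/- cells these lists had 5, 8, 12, 12 and 7 rises and 0, 1, 7, 3 and 4 falls.

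The RNAs made in the mitochondrion itself moved in both directions. The background was again 37.7% of all genes called higher and 39.2% lower in WT, and 39.1% and 40.2% in Aim2-/-. Of the 15 mitochondrially encoded rRNAs and mRNAs, 3 rose (mt-Nd3, mt-Nd1 and mt-Rnr2) and 4 fell in WT (median -0.01), and in Aim2-/- 1 rose and 3 fell (median 0.16). The largest called changes in WT were mt-Co2 (-1.37), mt-Nd3 (0.97) and mt-Nd1 (0.66). The libraries were made from mRNA selected by its poly(A) tail, so the level of rRNAs in them depends on that selection. Of 10 tested regulators of nuclear genes for mitochondrial proteins, 5 rose and 3 fell (median 0.21), and those changed most were Myc (1.81), Ppargc1b (-1.55) and Esrra (-1.04). Nrf1 had a log2 fold change of 0.04 ± 0.07 and was not called, and Gabpa (0.39) and Gabpb1 (0.69) rose.

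Lists of other complexes were added after values had been seen. Cytosolic ribosomal proteins mostly fell in Treg culture, whereas complex I subunits mostly rose, as did most members. Of all genes, 37.7% were called higher and 39.2% lower in WT, and 39.1% and 40.2% in Aim2-/-. Of 84 cytosolic ribosomal protein rows tested, 7 rose and 62 fell in WT (median -0.54), and in Aim2-/- 2 rose and 61 fell (median -0.59). Of 37 rows named as nuclear subunits of complex I, 30 rose and 2 fell (median 0.67), and in Aim2-/- 27 rose and 5 fell (median 0.58). Ndufs3 stands among these in duplicate rows with identical values. The cytosolic ribosomal proteins took 15.6% of all counts in WT Tn and 11.0% in WT Treg at the mean, without TMM factors.

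**Figure D4:**
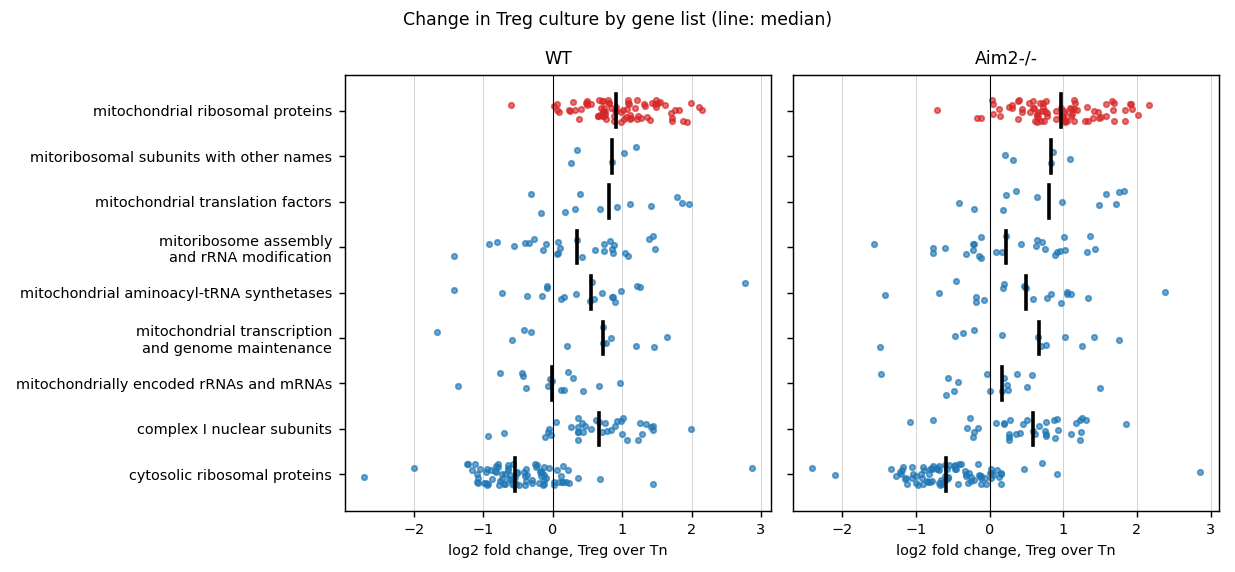
Log2 fold change of Treg over Tn for every tested gene of 9 lists in WT (left) and Aim2-/- (right), 1 point a row, shifted vertically at random for visibility, with the median as a black line. In WT the medians are 0.92 for the mitochondrial ribosomal proteins (red), -0.01 for the mitochondrially encoded RNAs and -0.54 for the cytosolic ribosomal proteins.

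Many of these genes share a promoter region with a neighbour. In GENCODE M21, 33 of 78 members (42.3%) had a protein-coding gene on the opposite strand that started within 1000 bases of their own start and ran the other way, beside 1999 of 11547 tested protein-coding genes (17.3%). Of the 30 partners that were tested, 16 rose and 10 fell in WT culture, where 37.7% of all genes rose and 39.2% fell. Their median log2 fold change was 0.33, and the member had the higher value of the pair in 22. Mrpl57 and Ska3, a gene of the mitotic spindle, start 49 bases apart, and their changes were 0.76 and 4.64. Mrpl51 and Ncapd2, a condensin subunit, start 100 bases apart and changed by 1.99 and 3.74. Mrpl2 rose by 1.21 while its partner Klc4 fell by 1.29 on the log2 scale, and Mrps34 had 0.88 beside -0.82 for Eme2. Mrpl46 and Mrps11 are each other's partner and rose by 0.66 and 1.07. Exons of 28 members overlap an exon on the opposite strand, and 21 of these had counts that were not whole numbers in at least 1 library.

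Aim2-/- and WT cells were compared within Tn and within Treg to ask whether these genes differ without AIM2. In Tn cells no member was called: 0 of 79 by edgeR, where 0.231% of 13441 genes were called, and 0 by limma-voom and DESeq2. The smallest edgeR adjusted p was 0.387. At an unadjusted p under 0.05 there were 13 of 79 (16.5%), where 10.3% of all genes passed. The log2 fold change of Aim2-/- over WT was above 0 for 75 of 79 rows, with a median of 0.16 beside 0.01 for all genes. The rows share their libraries and are not replicates, so counts of rows above 0, here and below, are descriptions only. In 13 rows all Aim2-/- libraries lay above all WT libraries, and in 0 below, where 3.36% of all genes lay above.

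The 6 members with the smallest p in Tn were Mrps26, Mrps34, Mrpl11, Mrps21, Mrps9 and Mrpl57. Mrps26 was at 37.9, 36.3, 41.9 and 44.3 CPM in WT Tn, and at 45.8, 49.7, 56.4 and 46.2 CPM in Aim2-/- (log2 fold change 0.31 ± 0.10, unadjusted p = 0.0099, edgeR adjusted p = 0.387). Mrps34, which stabilises the small subunit, was at 32.9, 32.2, 31.8 and 33.4 CPM in WT Tn, and at 35.7, 40.1, 48.7 and 37.03 CPM in Aim2-/- (0.32 ± 0.10, edgeR adjusted p = 0.403). It shares 1309 exon bases with Mapk8ip3 on the opposite strand (253.2 CPM in WT Tn) and 763 with Nme3 on the same strand (11.33 CPM). Reads of these genes cannot be told apart where they overlap, since the strand setting of the counting is not given. Mrpl11, at the base of the stalk, was at 19.5, 20.2, 19.9 and 18.0 CPM in WT Tn, and at 23.1, 22.9, 26.5 and 21.96 CPM in Aim2-/- (0.29 ± 0.10, edgeR adjusted p = 0.404). In all 3 genes the groups did not overlap, and Aim2-/- Tn 3 was the highest library. Mrps21, Mrps9 and Mrpl57 had log2 fold changes of 0.34 ± 0.12, 0.21 ± 0.07 and 0.28 ± 0.10.

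Aim2-/- Tn 3 was the highest library of its group for 73 of the 79 rows. Without it the median log2 fold change in Tn was 0.07 with 63 of 79 rows above 0. Within replicates 1 and 2 the median difference of log2(CPM + 0.5) was 0.07 (57 of 79 rows above 0), and within replicates 3 and 4 it was 0.23 (76 of 79). This split was made after the values were seen, and its second part holds Aim2-/- Tn 3, so it adds no separate evidence. Over 14531 genes the deviation of Aim2-/- Tn 3 from the mean of the Tn libraries had a Spearman rho of -0.37 with exon length, where the other 7 Tn libraries had -0.22 to 0.19. The members are short, with a median exon length of 2394 bases beside 3968 for the genes tested in Tn. Over the 78 symbols exon length had an r of -0.17 and a rho of -0.15 with the difference in Tn. After a correction for GC content and length the median was 0.06, beside -0.01 for all genes. Of the 78 rows that have an annotated length, 58 were above 0. The median less that of all genes was 0.08 with the correction and 0.14 without it. The part of length in the difference was not tested beyond this correction. The summed erythroid markers were higher in Aim2-/- Tn (5.86 to 8.31 CPM) than in WT Tn (1.54 to 4.39 CPM), and their part in the difference was not tested. Cytosolic ribosomal proteins (median 0.16, 82 of 84 rows above 0) and complex I subunits (median 0.22, 37 of 37 rows) had like values in Tn.

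In Treg cells no member was called either: 0 of 79 by edgeR, where 0.219% of 13221 genes were called, and 0 by limma-voom and DESeq2, with a smallest edgeR adjusted p of 0.999. At an unadjusted p under 0.05 there were 2 of 79, where 2.31% of all genes passed, and in 2 rows all Aim2-/- libraries lay above all WT libraries, where 1.29% of all genes did. The median log2 fold change was 0.08, beside 0.00 for all genes, and 75 of 79 rows were above 0. Mrps28, which is related to a bacterial protein that binds mRNA, had the smallest p: it was at 22.1, 23.9, 21.6 and 23.7 CPM in WT Treg, and at 24.0, 27.6, 29.0 and 27.8 CPM in Aim2-/- (log2 fold change 0.24 ± 0.08, unadjusted p = 0.011, edgeR adjusted p = 0.999). Mrpl4, of the exit tunnel, was at 62.4, 62.6, 63.2 and 64.5 CPM in WT Treg, and at 65.9, 67.7, 69.5 and 71.1 CPM in Aim2-/- (0.11 ± 0.05). These were the 2 genes without overlap. Mrps34 (0.17 ± 0.08), Mrps21 (0.12 ± 0.06), Mrpl55 (0.19 ± 0.09) and Mrpl12 (0.14 ± 0.07) had the next smallest p.

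The median in Treg varied with the libraries used. Aim2-/- Treg 1 was the lowest of its group for 69 of 79 rows and Aim2-/- Treg 4 the highest for 63. Without Aim2-/- Treg 1 the median was 0.12 with 78 of 79 rows above 0, and without Aim2-/- Treg 4 it was 0.03 with 62 above 0. Within replicates 1 and 2 the median difference was 0.0016 with 40 of 79 rows above 0, and within replicates 3 and 4 it was 0.13 with 79 of 79 above 0. The first part holds Aim2-/- Treg 1 and the second Aim2-/- Treg 4, so this split, made after the values were seen, adds no separate evidence. Aim2-/- Treg 3 and 4 had a Spearman rho of -0.15 each between exon length and their deviation from the mean of the Treg libraries over 14531 genes, where the other 6 Treg libraries had -0.01 to 0.15. Over the 78 symbols exon length had an r of -0.42 with the difference in Treg. The part of length in it was not tested beyond the GC and length correction. With the correction the median was 0.07, beside 0.02 for all genes, with 76 of 78 rows above 0. The median less that of all genes was 0.05 with the correction and 0.08 without it. In Treg 83 of 84 cytosolic ribosomal protein rows and 34 of 37 complex I rows were above 0 as well, both with a median of 0.06. Across the 78 symbols the differences in Tn and in Treg, which have no library in common, had an r of 0.25 and a rho of 0.23.

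**Figure D5:**
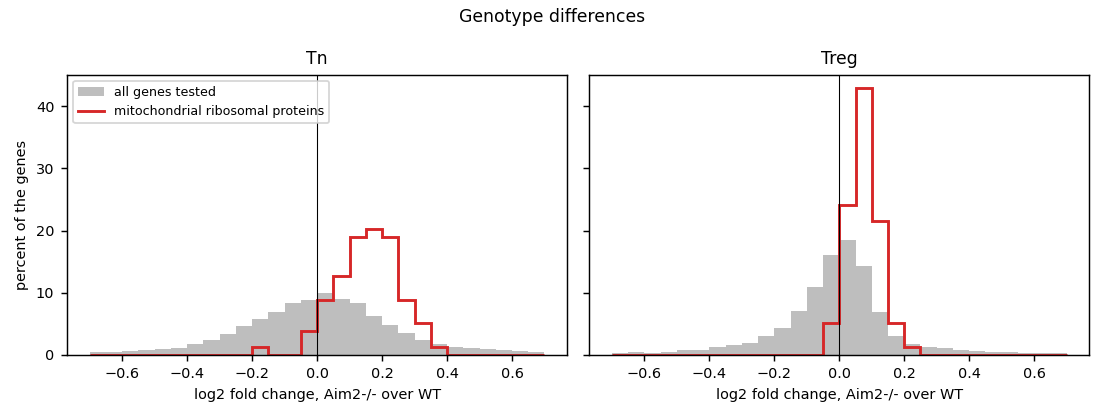
Share of genes (percent) by log2 fold change of Aim2-/- over WT, in steps of 0.05, for all genes tested (grey) and for the mitochondrial ribosomal protein rows (red line), in Tn (left) and Treg (right). The red line lies mostly right of 0 in both, with medians of 0.16 and 0.08, and 4.05% and 1.93% of all genes lie outside the axis.

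Whether the change in Treg culture differed between genotypes was tested as an interaction over all 16 libraries. No member was called: 0 of 79 by edgeR, where 0.0205% of 14669 genes were called, and 0 by limma-voom and DESeq2. At an unadjusted p under 0.05 there were 2 of 79. The share of all genes at that p is not given here, so this count has no background beside it. The median was -0.06 on the log2 scale, beside -0.0002 for all genes, with 15 rows above 0. The smallest p were those of Mrpl11 (-0.25 ± 0.11, unadjusted p = 0.040), Mrps26 (-0.26 ± 0.12, unadjusted p = 0.047), Mrpl52 (-0.32 ± 0.16), Mrps35 (-0.21 ± 0.12), Mrpl2 (-0.23 ± 0.13) and Mrps22 (0.28 ± 0.17), all with an edgeR adjusted p of 1.0. Mrpl52, a protein without a bacterial homolog, was at 26.6, 31.9, 30.3 and 29.8 CPM in WT Tn and 36.5, 29.3, 47.7 and 37.2 CPM in Aim2-/- Tn, while its Treg libraries overlapped at 45.9 to 51.6 CPM in WT and 46.5 to 54.7 CPM in Aim2-/-. Mrpl2, near the catalytic centre, was at 20.0 to 24.6 CPM in WT Tn and 24.7 to 32.4 CPM in Aim2-/- Tn, with no overlap, and at 46.4 to 57.1 and 53.9 to 56.1 CPM in Treg, with overlap. Mrps22 went the other way, at 8.15 to 10.9 CPM in WT Tn and 7.498 to 9.33 CPM in Aim2-/- Tn, which overlap.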

How the data were processed

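Stranded mRNA libraries were read from 1 end over 51 bases. The authors mapped the reads to GRCm38 with STAR, estimated gene counts with RSEM on GENCODE m15, and deposited 1 table of expected counts a library, neither normalized nor filtered. Versions and the strand setting are not given in the sources used here. An expected count is not whole where reads are shared, which held for 33 of the 79 rows in at least 1 library. Expected counts were rounded. Groups and replicate numbers came from the titles (the names of the tables number some libraries differently).

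CPM values were computed from the rounded counts with TMM-scaled library totals. Genes that reached 10 counts in 4 or more libraries of a comparison were tested by the two-sided quasi-likelihood test of edgeR 4.0.16 (robust, TMM) in R 4.3.3, on the 8 libraries compared or, for the interaction, all 16, with Benjamini-Hochberg adjustment over all genes and a threshold of 0.05. Standard errors are those implied by the fitted change and its F statistic. Depth allowed a floor of 3 counts, 0.0869 to 0.133 CPM, which covers counting error only. Coordinates, exon length and GC came from GENCODE M21 on GRCm38 and promoters from RefSeq. The tests were tested on simulated counts.

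Alternatives were limma-voom (limma 3.58.1), DESeq2 1.42.0, RLE factors, other filters, all 16 libraries in 1 fit, a replicate block, a GC and length correction (splines with 5 degrees of freedom), each library left out and, added after seeing the data, the rows of Mrps23 summed and values within replicate numbers.

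Members and lists were chosen with earlier results of these data known. Members named are those with the 6 smallest p in a genotype comparison or the interaction, the 8 largest and 8 lowest changes in each culture comparison, the 5 highest and lowest levels per exon length, and Mrpl12, Mrps12, Mrps18a, Mrps18b, Mrps18c, Mrps30, Mrps36 and Mrpl58. From other mitochondrial lists the 3 largest called changes are named, and divergent partners, Gabpa, Gabpb1 and Nrf1 were chosen after their values were seen. Of the listed symbols, Mtrfr and Wbscr16 had no row and Ppargc1a was not tested.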

Additional observations from a re-analysis of the deposited data

Results flagged for a closer look

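In 5 of 144 groups of 4 libraries of the named members, 1 library stood apart from the other 3 by more than the 95% critical value of Dixon's ratio. Chance sets apart about 1 in 20 such groups. Mrpl55 was at 10.4 CPM in WT Tn 3 (the others 8.56 to 8.86) and at 22.8 CPM in WT Treg 4 (18.6 to 19.2). Mrps6 was at 15.7 CPM in WT Tn 2 (18.1 to 18.5), Mrpl47 at 34.2 CPM in WT Treg 4 (28.0 to 28.5) and Mrps36 at 25.2 CPM in Aim2-/- Treg 4 (23.1 to 23.5).

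The name rule leaves out pseudogenes. Mrpl23-ps1 had a median of 197 counts a library (109 to 285), and Mrpl48-ps 4.02 counts (0 to 7.05). Both medians are above the floor of 3 counts, though not every library of Mrpl48-ps is, and reads they share with their parent genes cannot be told apart.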

How the results depend on the processing

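Of 1392 recomputed values of the named members, 1335 kept their direction and their side of the threshold. With limma-voom, DESeq2, RLE factors, other filters and all 16 libraries in 1 fit, 75 members were called in WT culture and 72 in Aim2-/- culture, as in the values given, and none by genotype or in the interaction. Without 1 library the calls ranged from 73 to 75 in WT culture and from 68 to 72 in Aim2-/- culture, and the median log2 fold change from 0.849 (without WT Tn 2) to 0.977 in WT culture, 0.829 to 1.05 in Aim2-/- culture, 0.0735 to 0.196 for genotype in Tn, 0.0306 to 0.117 in Treg and -0.118 to 0.0119 for the interaction. With the GC and length correction 70 members rose and 1 fell in WT culture, and 67 rose and 3 fell in Aim2-/- culture. The interaction then had a median of 0.01, beside 0.04 for all genes. The cause of the changes below was not tested.

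Log2 fold changes near 0 changed sign. With the GC and length correction, and then with that and a replicate block, the values were -0.000182 and -0.00348 for Mrps18a and -0.0755 and -0.0713 for Mrps36 (genotype in Tn). In WT culture they were -0.185 and -0.184 for Mrps35, -0.104 and -0.0927 for Mrpl58, -0.123 and -0.111 for Mrpl9, and -0.0886 and -0.0633 for Mrps30. In Aim2-/- culture they were -0.196 and -0.197 for Mrps30, -0.0969 and -0.0964 for Mrpl9, and -0.0936 and -0.0916 for Mrps26. Without 1 library the ranges were -0.0939 to 0.14 for Mrps36 (genotype in Tn), -0.0301 to 0.0493 for Mrpl58 (genotype in Treg), and in WT culture -0.011 to 0.0818 for Mrps35, -0.0472 to 0.137 for Mrpl58, -0.02 to 0.14 for Mrpl9 and -0.0345 to 0.207 for Mrps30. In Aim2-/- culture they were -0.0604 to 0.115 for Mrps30, -0.0422 to 0.109 for Mrpl9 and -0.0467 to 0.124 for Mrps26.

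The replicate numbers were not taken as pairs, since the labels give them no meaning and not every correlation of same-numbered libraries was over 0.1: these were 0.02 to 0.30 in Tn, -0.01 to 0.40 in Treg (over 0.1 for 3 of 4 numbers), and -0.04 to 0.13 between Tn and Treg. With the replicate block 74 members were called in WT culture, where Mrps24 was not (0.235, edgeR adjusted p = 0.070), and 72 in Aim2-/- culture, with medians of 0.914 and 0.962, and 0.156, 0.0719 and -0.0624 for genotype in Tn, in Treg and the interaction. No member was called by genotype with the block, but members at an unadjusted p under 0.05 numbered 19 in place of 13 in Tn, and 12 in place of 2 in Treg. The share of all genes at that unadjusted p with the block is not given here, so these counts have no background beside them. By adjusted p, 41 in place of 29 of all genes were called in Treg with the block. Depth was not limiting, since the lowest count of a member was 174.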
